A study of Mus musculus with 6 samples.

Results

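The genes of the TNF and TNF receptor superfamilies were followed in the gonadal white adipose tissue (GWAT) of obese mice with and without *Fsp27*. Their symbols start with *Tnfsf* or *Tnfrsf*, or are *Tnf*, *Lta*, *Ltb*, *Ltbr*, *Fas*, *Fasl*, *Cd27*, *Cd40*, *Cd40lg*, *Cd70*, *Eda*, *Edar*, *Eda2r* or *Ngfr*. They number 43 of the 19937 genes that a probeset with a single symbol represents, 16 ligands and 27 receptors, each measured by 1 probeset. GWAT was taken from male mice on chow diet at 4 months of age, either *ob/ob* (leptin deficient) or *ob/ob/Fsp27-/-*, so that leptin deficiency was common to both groups and *Fsp27* (*Cidec*, a lipid droplet protein of adipocytes) was the gene that differed between them. The RNA was hybridised to GeneChip Mouse Gene 1.0 ST arrays, with 3 for each genotype. The mice were on a C57BL/6J background. Per the methods each array held RNA pooled from 3 mice, which the labels do not mention, so that the p-values below measure the spread between arrays and not between single mice.

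TNF family ligands are mostly trimers made on the surface of leukocytes, some of which are shed by proteases, and they act by clustering their receptors. Receptors with a death domain can recruit adaptors that start caspase or necroptosis signalling, whereas others bind TRAF proteins that lead to NF-kB and MAP kinases, and decoy receptors bind ligand without signalling in this way. In obese adipose tissue TNF has long been studied as a macrophage product that interferes with insulin action in adipocytes, and a second well known axis, RANKL with RANK, drives osteoclast formation from myeloid cells.

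The level of a gene is given as its RMA value, a background-adjusted and quantile-normalized array signal on the log2 scale, and a difference as *ob/ob/Fsp27-/-* minus *ob/ob* on that scale. A gene was called, and is said to have risen or fallen, where limma gave it an adjusted p below 0.05 and the change reached 0.5 log2 units in either direction. Pearson correlations over all genes lay between 0.988 and 0.994 within a genotype and between 0.943 and 0.965 across genotypes. *Cidec* itself was at 11.49, 11.78 and 11.98 on the *ob/ob* arrays and at 11.34, 11.51 and 11.53 on the *ob/ob/Fsp27-/-* arrays, which overlap. Where its probes lie in relation to the deleted part of the gene is not given in the sources used here, so *Cidec* could not check the labels. Adipose tissue was recognizable by its adipocyte markers. The 7 measured had mean levels from the 90.4th (*Slc2a4*) to the 99.8th (*Fabp4*) percentile of all values. These levels do not tell the depot. With genotype, 5 of the 7 rose. All 5 measured markers of epididymis epithelium had means at or below the 30th percentile. *Adam7* still reached 5.90 on *ob/ob/Fsp27-/-* array 1, and *Lcn5* also passed the 30th percentile on array 2. Macrophage markers moved strongly with genotype. Of 12, 10 fell and none rose, and their summed linear signal was 22396, 21167 and 18837 on the *ob/ob* arrays against 4605, 5237 and 5060 on the *ob/ob/Fsp27-/-* arrays. *Adgre1*, which encodes the macrophage antigen F4/80, was at 11.58, 11.58 and 11.48 against 8.28, 8.37 and 8.37. The marker changes ranged from -3.30 for the integrin *Itgam* to -0.02 for the scavenger receptor *Marco*, with *Marco* and *Cd163* not called. Other lists moved too. Mast cell markers fell in 4 of 6 (summed signal 0.249 of that in *ob/ob*) and stromal progenitor markers in 3 of 8, whereas endothelial markers rose in 4 of 8 (summed signal 1.57-fold) and smooth muscle markers in 4 of 5 (1.34-fold). The part of any of these lists in the results below was not tested. In whole tissue, fewer cells of a type and less RNA per cell cannot be told apart.

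Of the 43 genes, 4 fell, 4 rose and 35 were not called. The 8 called genes were 18.6% of the family, beside 20.4% of all genes tested, so the share was close to the background. By direction, 9.58% of all genes tested were called higher and 10.8% lower. The largest decreases were in the receptors *Tnfrsf11a* (RANK) and *Tnfrsf1b* (TNFR2), followed by the receptor *Tnfrsf26* and the ligand *Tnfsf13b* (BAFF). The increases were in the ligand *Tnfsf10* (TRAIL), its decoy receptors *Tnfrsf23* and *Tnfrsf22*, and *Tnfrsf13c* (the BAFF receptor). The genotypes did not overlap in 17 members (39.5%), 12 higher and 5 lower in *ob/ob/Fsp27-/-* GWAT, beside 46.0% of all genes. The median log2 fold change was 0.08 over the family and 0.06 over all genes tested.

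**Figure D1:**
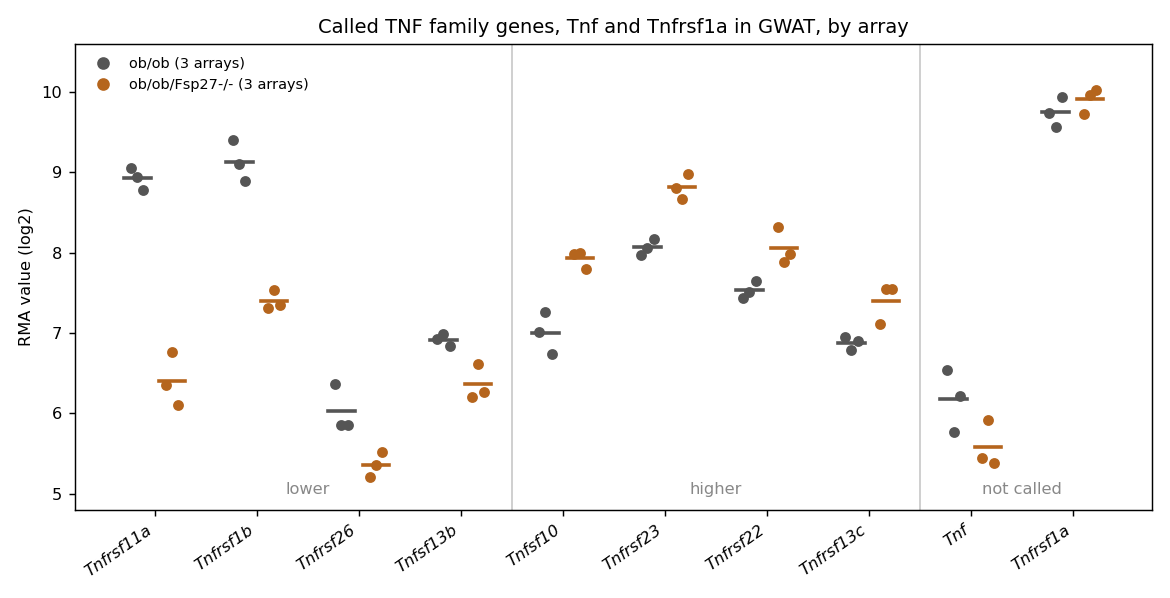
RMA value (log2) of the called members, and of *Tnf* and *Tnfrsf1a*, which were not called, on each array. Points are the 3 *ob/ob* and 3 *ob/ob/Fsp27-/-* arrays, and bars are group means. *Tnfrsf11a* and *Tnfrsf1b* show the widest gap between genotypes, whereas the arrays of *Tnf* and *Tnfrsf1a* overlap.

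**Figure D2:**
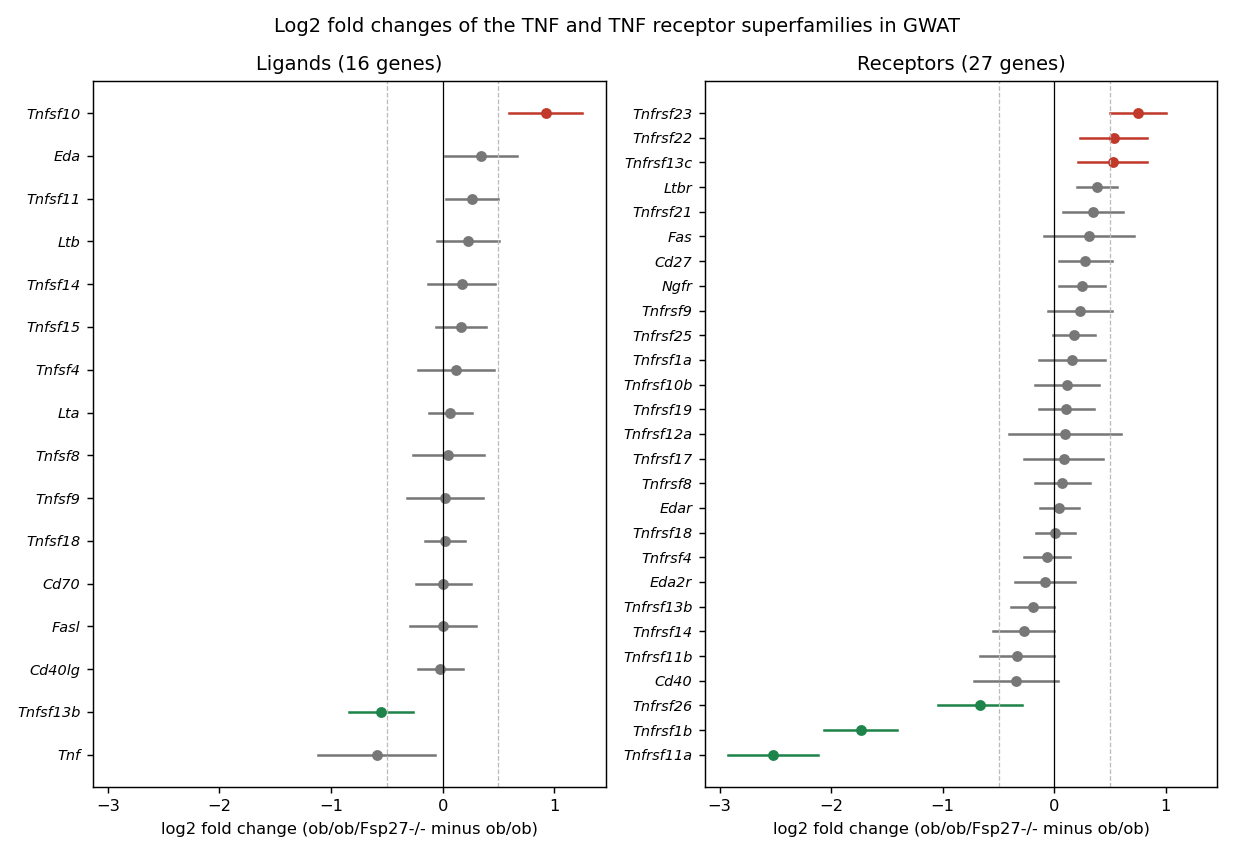
Log2 fold change of all 43 members (*ob/ob/Fsp27-/-* minus *ob/ob*), with 95% confidence intervals from limma, 3 arrays per genotype. Most members lie between -0.5 and 0.5, and the interval of *Tnfrsf11a* is the farthest from 0, at -2.92 to -2.12.

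Among the ligands, 1 of 16 fell, 1 rose and 14 were not called. *Tnfsf10*, which encodes TRAIL, a ligand that can trigger apoptosis, was at 7.01, 7.26 and 6.74 in *ob/ob* GWAT and at 7.99, 7.99 and 7.80 in *ob/ob/Fsp27-/-* GWAT. All *ob/ob/Fsp27-/-* arrays lay above all *ob/ob* arrays. It rose to a mean of 7.93 ± 0.11 (SD, n = 3, with an SD of 0.26 in *ob/ob*), a log2 fold change of 0.93 (SE 0.14, limma adjusted p = 0.00278) or 1.90-fold. The 250 bases upstream of its RefSeq start are shown because it had the largest change among the 16 ligands counted. They lie at chr3:27316827-27317076 on the plus strand of GRCm38.p6. They hold 51.6% G and C and 6 CpG, near the medians of 52.4% and 6 over all windows of this length.
Tnfsf10: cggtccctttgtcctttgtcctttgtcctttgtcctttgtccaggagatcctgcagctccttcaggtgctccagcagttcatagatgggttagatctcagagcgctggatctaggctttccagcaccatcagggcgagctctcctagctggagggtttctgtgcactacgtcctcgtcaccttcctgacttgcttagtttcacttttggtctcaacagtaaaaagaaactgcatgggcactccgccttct

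*Tnfsf13b*, which encodes BAFF, a survival factor for B cells made largely by myeloid and stromal cells, was at 6.92, 6.98 and 6.84 in *ob/ob* GWAT and at 6.20, 6.61 and 6.27 in *ob/ob/Fsp27-/-* GWAT. The groups did not overlap, and *ob/ob/Fsp27-/-* array 2 was the nearest to *ob/ob*. Its mean fell from 6.91 ± 0.070 to 6.36 ± 0.22 (SD, n = 3 each), a log2 fold change of -0.55 (SE 0.12, limma adjusted p = 0.0132). The value lies just past the fold threshold. The call was lost without *ob/ob* array 2 (adjusted p = 0.0544), without *ob/ob/Fsp27-/-* array 1 (log2 fold change -0.48) with centring on housekeeping genes (-0.47) and with the methods' t-test (adjusted p = 0.0629). One of its RefSeq windows, at chr8:10006383-10006632 on the plus strand, is printed because it holds both an AP-1 site and an interferon-stimulated response element (ISRE), in capitals in that order. The AP-1 site starts 127 bases and the ISRE 16 bases before the start.
Tnfsf13b: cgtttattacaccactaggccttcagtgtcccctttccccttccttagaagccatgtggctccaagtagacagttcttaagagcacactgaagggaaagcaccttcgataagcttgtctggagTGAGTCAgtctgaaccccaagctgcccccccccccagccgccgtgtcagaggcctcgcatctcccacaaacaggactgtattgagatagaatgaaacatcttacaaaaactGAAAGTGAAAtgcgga

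*Tnf* itself was at 6.54, 5.76 and 6.22 in *ob/ob* GWAT and at 5.44, 5.92 and 5.38 in *ob/ob/Fsp27-/-* GWAT. The groups overlap, because *ob/ob* array 2 lay below *ob/ob/Fsp27-/-* array 2. The log2 fold change was -0.59 (SE 0.22, 95% confidence interval -1.11 to -0.07), and it was not called (limma adjusted p = 0.0895). Without *ob/ob* array 2 it was called, at -0.80 (adjusted p = 0.0356). Over the settings tried its adjusted p ran from 0.0356 to 0.226. The missing call does not show that *Tnf* was unchanged. By reverse transcription-PCR the paper reports less TNFα mRNA in the white fat of *ob/ob/Fsp27-/-* mice. It also reports less TNFα protein in that tissue and in serum. *Tnf* lies between *Ltb* and *Lta* in the genome, which encode the lymphotoxins. Neither was called, with log2 fold changes of 0.23 for *Ltb* (adjusted p = 0.204) and 0.07 for *Lta* (adjusted p = 0.565).

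The other ligands were not called. *Tnfsf11* (RANKL) was at 6.87, 6.74 and 6.75 against 6.88, 7.12 and 7.15, a log2 fold change of 0.26 (adjusted p = 0.0891), and *Eda* (ectodysplasin) at 6.43, 6.59 and 6.96 against 7.01 on each *ob/ob/Fsp27-/-* array (0.35, adjusted p = 0.104). In both genes every *ob/ob/Fsp27-/-* array lay above every *ob/ob* array, though only narrowly. The remaining ligands, *Cd40lg*, *Cd70*, *Fasl*, *Tnfsf4*, *Tnfsf8*, *Tnfsf9*, *Tnfsf14*, *Tnfsf15* and *Tnfsf18*, mostly act between lymphocytes and antigen-presenting cells. Their log2 fold changes lay between -0.02 (*Cd40lg*) and 0.17 (*Tnfsf14*), and their genotypes overlapped. Of the 16 ligands, 8 had a mean level above the 30th percentile of all values and 4 above the median, and a change in the dimmest of them may not have been detectable. A further probeset names *Tnfsf12* (TWEAK), *Tnfsf13* (APRIL) and their readthrough gene together. It was at 9.37, 9.17 and 8.95 against 7.84, 8.02 and 7.72, a log2 fold change of -1.31 (SE 0.13, limma adjusted p = 0.000516). It cannot be assigned to a single gene and was not counted.

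Receptors that bind TRAF proteins and carry no death domain numbered 13, of which 2 fell and none rose. *Tnfrsf11a* encodes RANK, the receptor of RANKL on osteoclast precursors and other myeloid cells, and had the largest change in the family. It was at 9.05, 8.94 and 8.79 in *ob/ob* GWAT and at 6.35, 6.77 and 6.10 in *ob/ob/Fsp27-/-* GWAT, so that the highest *ob/ob/Fsp27-/-* array lay far below the lowest *ob/ob* array. Its mean fell from 8.92 ± 0.13 to 6.40 ± 0.34 (SD, n = 3 each), a log2 fold change of -2.52 (SE 0.17, limma adjusted p = 0.000123) or 5.73-fold. The window before its start, at chr1:105780473-105780722 on the plus strand, is shown as that of the member that fell the most. It holds 73.6% G and C and 31 CpG, against medians of 52.4% and 6.
Tnfrsf11a: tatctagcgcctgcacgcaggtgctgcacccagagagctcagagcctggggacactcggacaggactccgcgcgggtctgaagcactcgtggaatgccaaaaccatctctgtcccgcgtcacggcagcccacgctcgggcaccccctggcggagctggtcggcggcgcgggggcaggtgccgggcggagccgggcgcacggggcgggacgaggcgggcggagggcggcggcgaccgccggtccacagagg

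*Tnfrsf1b* encodes TNFR2, the TNF receptor found mainly on leukocytes and endothelium. It was at 9.40, 9.11 and 8.90 in *ob/ob* GWAT and at 7.31, 7.54 and 7.35 in *ob/ob/Fsp27-/-* GWAT, with a wide gap between the groups. Its mean fell from 9.13 ± 0.25 to 7.40 ± 0.12 (SD, n = 3 each), a log2 fold change of -1.74 (SE 0.14, limma adjusted p = 0.000217) or 3.33-fold. Its window, at chr4:145246871-145247120 on the minus strand, is printed in the direction of the gene because an ISRE on the opposite strand, in capitals, ends at the last base before the start.
Tnfrsf1b: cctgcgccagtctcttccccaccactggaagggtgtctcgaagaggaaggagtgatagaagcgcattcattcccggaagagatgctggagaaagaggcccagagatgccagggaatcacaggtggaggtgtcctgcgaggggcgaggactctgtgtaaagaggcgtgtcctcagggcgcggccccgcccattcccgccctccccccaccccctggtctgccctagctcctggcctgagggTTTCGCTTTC

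Both receptors are expressed by macrophages, whose markers fell as given above, and the part of the markers in these results was not tested. The mean log2 level of the 12 macrophage markers was 9.85, 9.77 and 9.68 in *ob/ob* GWAT and 7.78, 7.98 and 7.87 in *ob/ob/Fsp27-/-* GWAT. Of the dendritic cell markers 3 of 8 fell, with a list median of -0.22 and a range from -3.61 for *Itgax* (CD11c, which macrophages of obese fat also carry) to 0.28 for *Zbtb46*.

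*Ltbr*, the lymphotoxin beta receptor, was at 7.63, 7.60 and 7.72 against 7.98, 8.07 and 8.05. Its arrays were tightly grouped within each genotype, and the difference of 0.38 (SE 0.076, limma adjusted p = 0.00884) passed the p threshold but not the fold threshold. The other TRAF-binding receptors were not called and had log2 fold changes from -0.34 to 0.28. *Cd40*, a costimulatory receptor of antigen-presenting cells, was at -0.34 (adjusted p = 0.159) and *Tnfrsf14* (HVEM) at -0.27 (adjusted p = 0.127), each with overlapping groups. *Cd27* (0.28, adjusted p = 0.0831) and *Tnfrsf9* (4-1BB, 0.23, adjusted p = 0.220), costimulatory receptors of lymphocytes, lay higher on every *ob/ob/Fsp27-/-* array than on any *ob/ob* array. The rest were *Tnfrsf4* (OX40), *Tnfrsf8* (CD30), *Tnfrsf18* (GITR), *Eda2r*, *Tnfrsf19* and *Tnfrsf12a* (Fn14, the receptor of TWEAK). *Tnfrsf12a* varied most within a genotype among them, at 7.99, 8.09 and 8.54 against 7.95, 8.27 and 8.69. T cell markers gave no call in either direction among 9 measured.

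None of the 7 death domain receptors was called. *Tnfrsf1a*, which encodes TNFR1, the receptor of TNF on most cell types, was at 9.74, 9.57 and 9.94 in *ob/ob* GWAT and at 9.73, 9.96 and 10.03 in *ob/ob/Fsp27-/-* GWAT. The groups overlap, and the log2 fold change was 0.16 (95% confidence interval -0.14 to 0.45, limma adjusted p = 0.404). The interval of *Tnfrsf1b*, from -2.06 to -1.41, lies wholly below that of *Tnfrsf1a*. The difference between the changes of both TNF receptors was not itself tested. *Fas* was at 6.98, 7.42 and 7.59 against 7.43, 7.72 and 7.76 (0.31, adjusted p = 0.232), again with overlap. *Tnfrsf21* (DR6) was at 9.78, 9.48 and 9.42 against 9.80, 9.95 and 9.97, a log2 fold change of 0.35 (adjusted p = 0.0588) with only a narrow gap between the groups. *Ngfr* (p75, the neurotrophin receptor) at 0.25 (adjusted p = 0.0705) and *Tnfrsf25* (DR3) at 0.18 (adjusted p = 0.148) also showed no overlap, and *Tnfrsf10b*, the mouse TRAIL death receptor, was at 0.11 (adjusted p = 0.540) and *Edar* at 0.04. Over this class the log2 fold changes had a median of 0.18, beside 0.06 over all genes tested.

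Of the 3 decoy receptors, 2 rose. *Tnfrsf23*, a mouse TRAIL decoy receptor, was at 7.97, 8.05 and 8.17 in *ob/ob* GWAT and at 8.80, 8.67 and 8.98 in *ob/ob/Fsp27-/-* GWAT. The groups were well apart, and the mean rose from 8.07 ± 0.098 to 8.82 ± 0.16 (SD, n = 3 each), a log2 fold change of 0.75 (SE 0.11, limma adjusted p = 0.00205) or 1.68-fold. Its window at chr7:143685876-143686125 on the minus strand is given in the direction of the gene, as that of the receptor that rose the most.
Tnfrsf23: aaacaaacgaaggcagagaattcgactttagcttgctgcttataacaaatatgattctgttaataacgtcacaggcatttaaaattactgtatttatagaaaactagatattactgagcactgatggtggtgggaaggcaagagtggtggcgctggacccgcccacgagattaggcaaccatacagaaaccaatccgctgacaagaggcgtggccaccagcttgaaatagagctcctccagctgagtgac

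*Tnfrsf22*, the other TRAIL decoy receptor, lay at 7.44, 7.51 and 7.65 against 8.32, 7.88 and 7.99. The groups did not overlap, with *ob/ob/Fsp27-/-* array 1 the highest, and the log2 fold change was 0.53 (SE 0.13, limma adjusted p = 0.0194). The call was lost without *ob/ob* array 1 (adjusted p = 0.0614), without *ob/ob* array 2 (adjusted p = 0.0688) without *ob/ob/Fsp27-/-* array 1 (log2 fold change 0.40) and with the methods' t-test (adjusted p = 0.0807). *Tnfrsf11b* encodes osteoprotegerin, the secreted decoy of RANKL, and was not called. It was at 6.06, 6.11 and 6.08 against 5.61, 6.07 and 5.56, a log2 fold change of -0.33 (adjusted p = 0.125), where *ob/ob/Fsp27-/-* array 2 lay within the *ob/ob* arrays and the other two lay below.

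*Tnfrsf26*, whose role is not settled, fell. It was at 6.36, 5.86 and 5.86 in *ob/ob* GWAT and at 5.20, 5.35 and 5.52 in *ob/ob/Fsp27-/-* GWAT. The groups did not overlap, though *ob/ob* array 1 stood above the other two. The log2 fold change was -0.67 (SE 0.16, limma adjusted p = 0.0184), and the call was lost without *ob/ob* array 1 (log2 fold change -0.50, just under the fold threshold in size), *ob/ob/Fsp27-/-* array 1 (adjusted p = 0.0541) or *ob/ob/Fsp27-/-* array 2 (adjusted p = 0.0623), and with the methods' t-test (adjusted p = 0.0891). *Tnfrsf26*, *Tnfrsf22* and *Tnfrsf23* are direct neighbours on mouse chromosome 7 and closely related, and thus 1 of the 3 fell while the other two rose. Related genes can share probe matches, which the deposited values do not resolve. In all, 21 members lay within 2 coding genes of another member, in 13 neighbouring pairs, and outside this cluster the only called gene among them was *Tnfrsf1b*, next to *Tnfrsf8* (CD30, 0.07).

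Among the 3 receptors of the B lineage, 1 rose. *Tnfrsf13c*, which encodes the BAFF receptor that B cells need to survive, was at 6.95, 6.79 and 6.90 in *ob/ob* GWAT and at 7.12, 7.54 and 7.55 in *ob/ob/Fsp27-/-* GWAT. The groups did not overlap, and *ob/ob/Fsp27-/-* array 1 was the nearest to *ob/ob*. The log2 fold change was 0.52 (SE 0.13, limma adjusted p = 0.0231). The call was lost without *ob/ob* array 2 (adjusted p = 0.0868), *ob/ob* array 3 (adjusted p = 0.0507), *ob/ob/Fsp27-/-* array 2 (adjusted p = 0.0813) or *ob/ob/Fsp27-/-* array 3 (adjusted p = 0.0710), and with the methods' t-test (adjusted p = 0.0900). *Tnfrsf13b* (TACI) was at -0.19 (adjusted p = 0.128) without overlap and *Tnfrsf17* (BCMA) at 0.08 (adjusted p = 0.722). None of the 8 measured B cell and plasma cell markers was called, but their mean log2 level was 5.66, 5.75 and 5.71 in *ob/ob* GWAT and 5.67, 6.55 and 6.99 in *ob/ob/Fsp27-/-* GWAT. Of the 8, 4 lay higher on every *ob/ob/Fsp27-/-* array than on any *ob/ob* array, as did 25.3% of all genes. One of these, *Pax5*, passed the p threshold but not the fold threshold (0.39, limma adjusted p = 0.0214). *Jchain* was at 8.60, 8.55 and 7.51 against 6.75, 9.35 and 9.80. Among the *ob/ob/Fsp27-/-* arrays, array 1 thus had the lowest marker mean and the lowest *Tnfrsf13c*. *Tnfrsf17*, at 5.49, 5.91 and 5.37 on these arrays, was lowest on array 3. The part of the markers in these results was not tested.

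**Figure D3:**
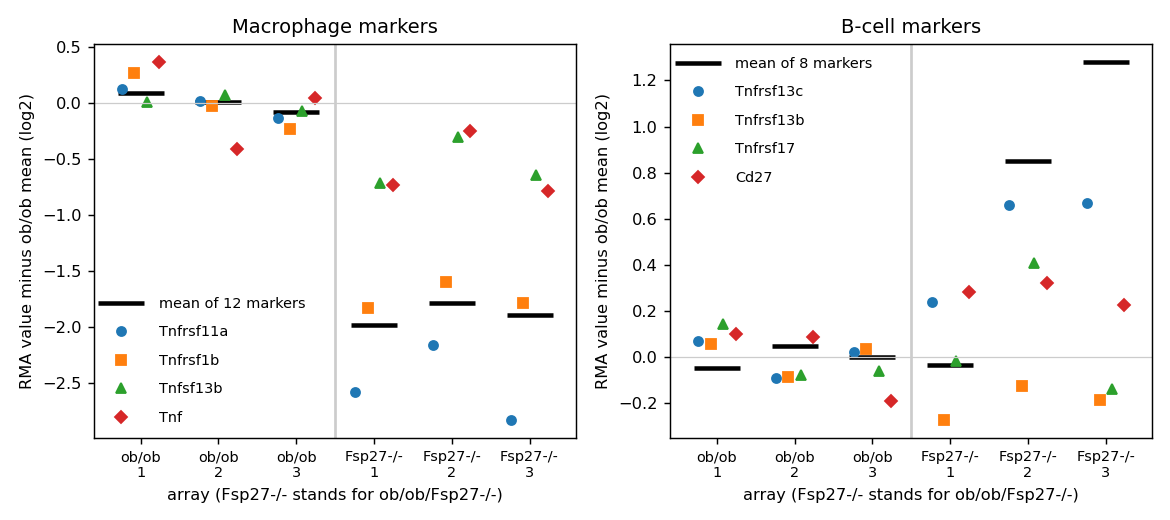
RMA value minus the *ob/ob* mean (log2) on each array for the mean of 12 macrophage markers beside *Tnfrsf11a*, *Tnfrsf1b*, *Tnfsf13b* and *Tnf* (left) and for the mean of 8 B cell and plasma cell markers beside *Tnfrsf13c*, *Tnfrsf13b*, *Tnfrsf17* and *Cd27* (right), with black bars for the markers and points for genes. The mean of the macrophage markers lies low on all 3 *ob/ob/Fsp27-/-* arrays, whereas that of the B cell and plasma cell markers lies high on arrays 2 and 3 only.

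Ligands were then set beside the receptors they are known to bind, in 26 pairs. Both partners were called in 3 pairs, 1 partner in 7 and neither in 16. The pairs are not independent, since a gene can stand in several of them. All 3 pairs with both partners called hold *Tnfsf10* or *Tnfsf13b*. Of all single genes tested, 20.4% were called, so these counts are a description and not a result about pairing. TRAIL (*Tnfsf10*) and its decoy receptors *Tnfrsf22* and *Tnfrsf23* rose, while the TRAIL death receptor *Tnfrsf10b* at 0.11 and osteoprotegerin (*Tnfrsf11b*), which also binds TRAIL, at -0.33 were not called. In the third pair BAFF (*Tnfsf13b*) fell and its receptor *Tnfrsf13c* rose. RANK (*Tnfrsf11a*) fell, at -2.52, while RANKL (*Tnfsf11*) at 0.26 and osteoprotegerin (*Tnfrsf11b*) at -0.33 were not called. Of the receptors of TNF, *Tnfrsf1b* fell and *Tnfrsf1a* was not called. No difference between 2 members was itself tested.

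**Figure D4:**
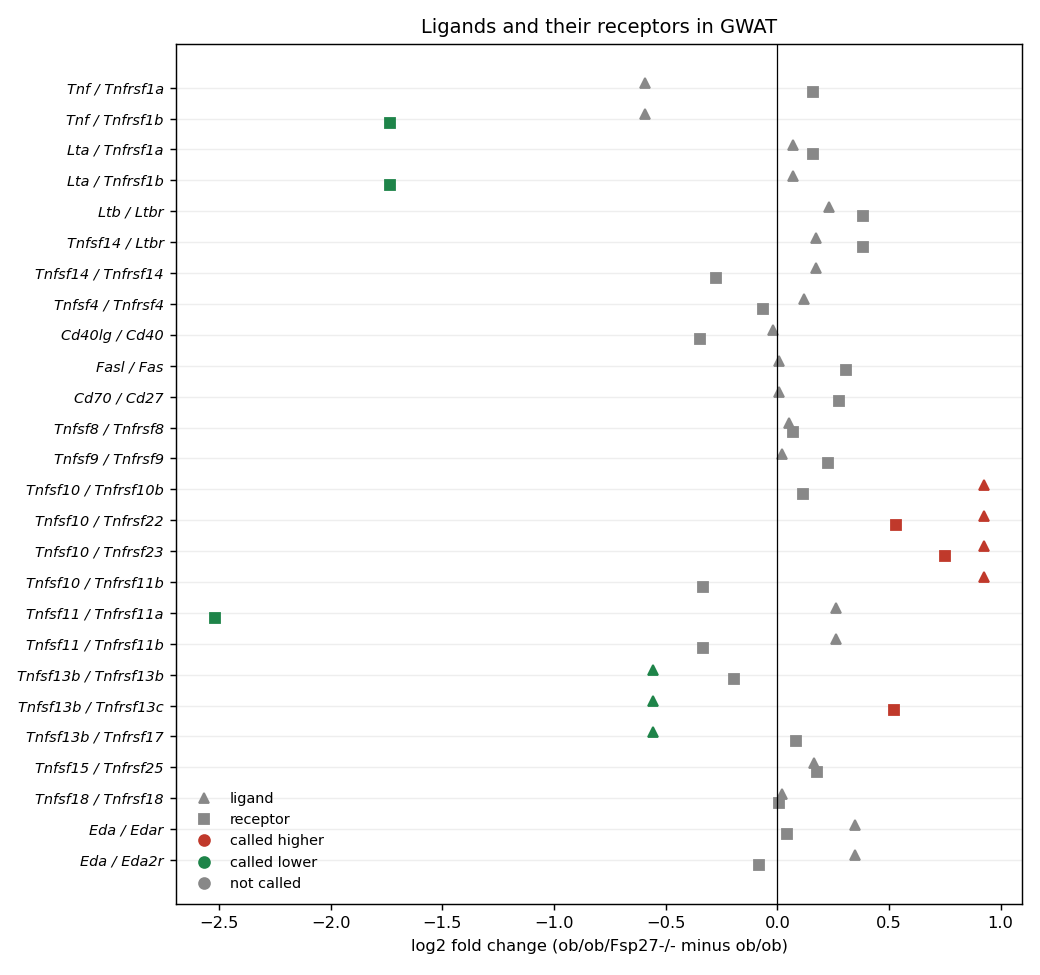
Log2 fold change (*ob/ob/Fsp27-/-* minus *ob/ob*) of each ligand beside its receptors, in 26 pairs, coloured by call. TRAIL, *Tnfrsf22* and *Tnfrsf23* are at 0.53 or above, and RANK is at -2.52 beside RANKL at 0.26.

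Beyond the ligands and receptors, 46 of 53 listed signalling partners were measured, of which 14 fell and 2 rose. That is 34.8%, beside 20.4% of all genes tested, and their median log2 fold change was -0.25, beside 0.06. All 46 had a mean level above the 30th percentile of all values and 44 above the median. Of the 19937 genes tested, 15230 and 11332 did. The shares were not matched for level, and a change in a dim gene may not be detectable. The largest decrease was in *Tnip3*, which encodes an A20-binding inhibitor of NF-kB. It was at 9.03, 8.94 and 8.78 in *ob/ob* GWAT and at 4.84, 4.61 and 4.76 in *ob/ob/Fsp27-/-* GWAT, with no overlap, a fitted log2 fold change of -4.18 (SE 0.10, limma adjusted p = 7.82e-06). The *ob/ob/Fsp27-/-* values lie below the 30th percentile of all values (4.89), where a signal may not exceed background, so that the true decrease may be larger than the fitted one. The kinase *Ikbke* fell by 1.86 (adjusted p = 0.000226), the necroptosis effector *Mlkl* by 1.23 (adjusted p = 0.000443) and the NF-kB subunit *Rel* by 1.13 (adjusted p = 0.000143). The adaptor *Traf5* fell by 1.09 (adjusted p = 0.000247) and *Adam17*, the protease that sheds TNF and its receptors, by 1.04 (adjusted p = 0.000463). *Tnfaip3*, which encodes A20, the NF-kB-induced ubiquitin editor, fell by 0.68 (adjusted p = 0.00537).

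The other partners that fell were *Madd*, *Ripk3*, *Tnip2*, *Bcl3*, *Birc3*, *Nfkbie* and *Casp8*, with log2 fold changes from -1.01 to -0.58. Those that rose were *Tab3*, a subunit of the TAK1 kinase complex, at 0.98 (limma adjusted p = 0.000335) and the adaptor *Traf4* at 0.88 (adjusted p = 0.00177). *Traf2*, an adaptor of both TNF receptors, was at -0.10 (adjusted p = 0.394), and *Nfkb2* at -0.45 (adjusted p = 0.00437) passed the p threshold but not the fold threshold. The NF-kB inhibitor *Nfkbia* was not called, at -0.14 (adjusted p = 0.348). Many of these partners are expressed in leukocytes, whose marker lists did not move alike. Macrophage and mast cell markers mostly fell, as did some dendritic cell markers. None of the 9 T cell, 6 NK cell or 8 B cell and plasma cell markers measured was called. Of 7 neutrophil markers, 1 rose and none fell. Of the NK cell and neutrophil markers, 3 in each list were not above the 30th percentile of all values. The part of the markers was not tested. *Nfkb1*, *Ripk1*, *Ripk2*, *Traf3* and *Chuk* were among the listed partners not analysed here.

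**Figure D5:**
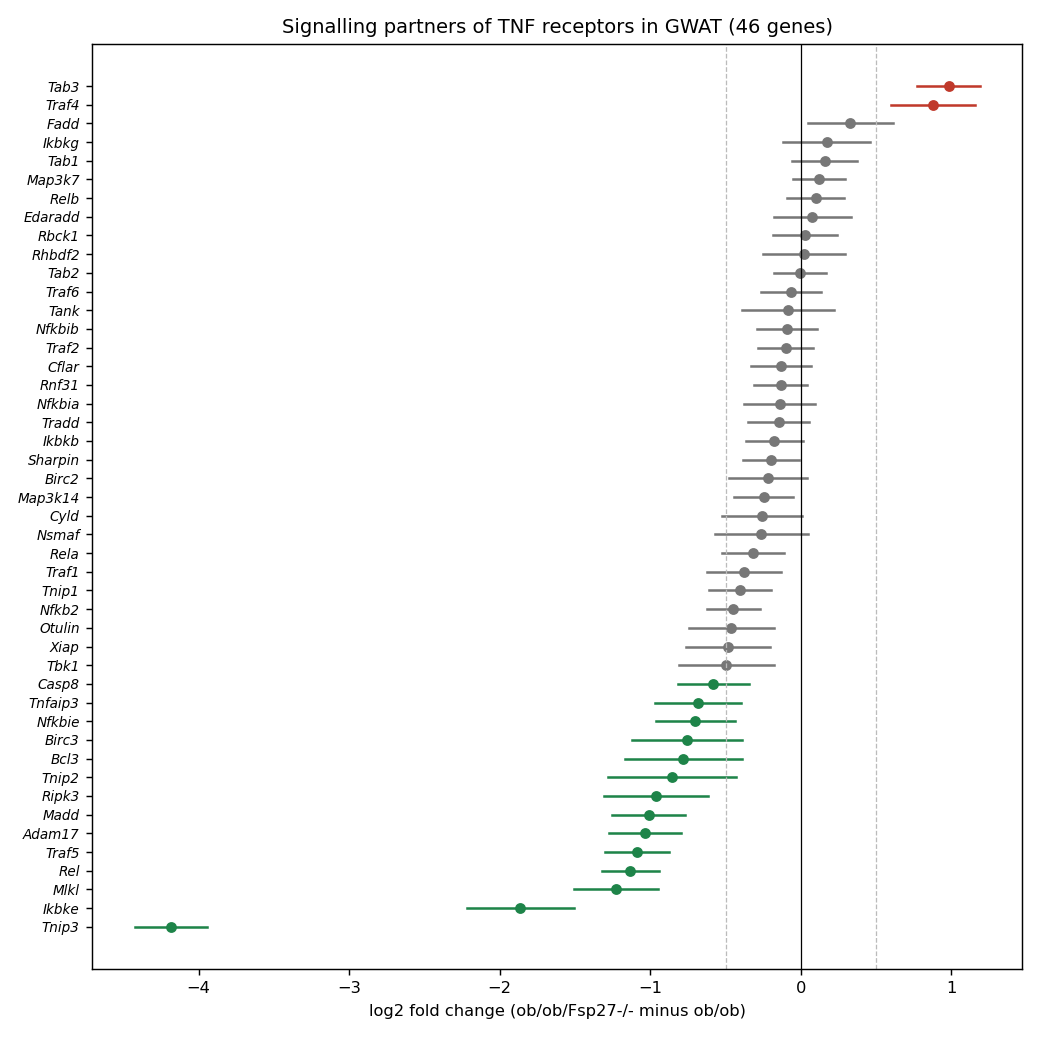
Log2 fold change (*ob/ob/Fsp27-/-* minus *ob/ob*) of the 46 measured signalling partners, with 95% confidence intervals from limma and colour by call, 3 arrays per genotype. *Tnip3* has the largest fitted decrease, at -4.18 with *ob/ob/Fsp27-/-* values below the 30th percentile of all values, and only *Tab3* and *Traf4* rose.

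Promoter windows of 250 bases before the start were read from RefSeq for 34 of the 43 members (38 windows). Short motifs were searched on both strands in them and in all 32851 windows. The NF-kB motif (GGG and TTCC with any 3 bases between) was in a window of *Eda2r*, *Ltb*, *Tnfrsf25* and *Tnfrsf9* and in 4.65% of all windows. The ISRE motif (GAAA, any 2 bases and GAAA) was in *Tnfrsf14*, *Tnfrsf17*, *Tnfrsf1b* and *Tnfsf13b* and in 2.98% of all windows. The AP-1 motif TGANTCA was in *Fas*, *Tnfrsf8*, *Tnfrsf9*, *Tnfsf13b* and *Tnfsf14* (6.75% of all windows), and the PU.1 motif GAGGAAGT in *Tnfsf18* (2.44%). Of the called members with a window, *Tnfrsf1b* and *Tnfsf13b* held a motif, both an ISRE and both of them lower in *ob/ob/Fsp27-/-* GWAT. The other members with an ISRE, *Tnfrsf14* (-0.27) and *Tnfrsf17* (0.08), were not called. The windows of *Tnfrsf11a*, *Tnfsf10*, *Tnfrsf23* and *Tnfrsf13c* held none of the 4 motifs. A match is a stretch of letters only and says nothing of binding.

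Within a genotype the members did not vary independently of the array. In *ob/ob* GWAT, array 1 gave the highest value in 25 of 43 members (58.1%, beside 36.4% of all genes) and array 2 the lowest in 27 (62.8%, beside 35.5%). In *ob/ob/Fsp27-/-* GWAT, array 2 gave the highest value in 25 members (58.1%, beside 43.2%). The SD between arrays had a median over members of 0.107 (*ob/ob*) and 0.156 (*ob/ob/Fsp27-/-*), beside 0.107 and 0.120 over all genes.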

How the data were processed

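RNA of GWAT was amplified, labelled and hybridised to 6 Affymetrix arrays, 3 per genotype. The deposited values are log2 signals that the authors made with RMA (background adjustment, quantile normalization and a summary per probeset). RMA and limma are named in the submitters' processing notes, with no version given in the sources used here.

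Genes were named from the platform annotation, brought up to date by Entrez number, which matched 21553 probesets and changed no symbol. Of 34760 probesets, 21640 had 1 symbol, 1321 several and 11799 none. Those with a symbol, 22961 in all, were tested with limma 3.58.1 under R 4.3.3. The model (lmFit, then eBayes) had the genotypes as its only term, and p-values were adjusted over all tested probesets by Benjamini-Hochberg. The thresholds are those of the methods, but the paper's filter for probesets detected above background was not applied. Where a gene had several probesets, the brightest by mean over the 6 arrays was taken. The number of arrays limits the precision. The script was tested on simulated data.

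The members and lists were chosen with earlier results of these data known, and signalling partners, markers and ligand-receptor pairs were written from general knowledge. Values in every array were given by rule for *Tnf*, *Tnfrsf1a*, *Tnfrsf1b* and the called members (up to 12 lower and 8 higher), and for other members only where a sentence turns on them, chosen after their values were seen. Of the partners, up to 6 called per direction and *Traf2*, *Nfkb1*, *Nfkb2* and *Tnfaip3* were named by rule, and the others, *Nfkbia* among them, after their values were seen. Alternatives were other centring (array medians, housekeeping genes, cyclic loess), variance models, array weights and a Student's t-test. The paper used that test for other measurements and limma for its arrays. Further alternatives were filters on dim probesets, other probeset rules and fold thresholds, and leaving out each array. Promoter sequences came from RefSeq (GRCm38.p6). Figures were drawn with matplotlib 3.10.9 in python 3.11.15.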

Additional observations from a re-analysis of the deposited data

How the results depend on the processing

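*Tnfrsf11a* and *Tnfrsf1b* kept their call in all 19 settings (log2 fold changes of -2.70 to -2.37 and -1.86 to -1.60), and *Tnfrsf23* and *Tnfsf10* lost theirs only at a log2 fold change of at least 1. Alternatives were computed for 22 named genes, and none of them turned its direction while called. At that threshold 0 members were higher and 2 lower, with 0 ligands higher, 0 ligands lower, 0 receptors higher, 0 partners higher and 7 partners lower, since fewer genes can pass. With a Student's t-test and Benjamini-Hochberg adjustment 2 members were higher and 2 lower, 0 ligands lower and 1 receptor higher. With centring on housekeeping genes 0 ligands were lower. Among the 21 members above the median level the median log2 fold change was 0.18.

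Leaving out 1 array gave 2 to 3 members higher and 2 to 4 lower, 1 ligand higher and 0 to 1 lower, 1 to 2 receptors higher and 2 to 3 lower, 2 partners higher and 14 to 17 lower, 19 to 24 members without overlap, and a median of 0.03 to 0.12. The count of members without overlap, 17 with all arrays, cannot fall when an array is left out. The lowest counts of calls were 2 members and 1 receptor higher without *ob/ob* array 2, and 2 members lower and 0 ligands lower without *ob/ob/Fsp27-/-* array 1. The cause was not tested.

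Centring on housekeeping genes moved the median of all genes from 0.06 to 0.15 and the calls over all genes from 1910 higher and 2158 lower to 2470 and 1833. Of the 16 housekeeping genes measured, none was called, but 10 did not overlap between genotypes (beside 46.0% of all genes). Their median log2 fold change was -0.13, so this reference itself differed between the genotypes. Of the members, 31 had a log2 fold change above 0, 34 under that centring and 25 under cyclic loess. No paired analysis was possible because the labels give the genotypes no shared replicate numbers.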
